A study of Homo sapiens with 16 samples.

Results

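The transcripts described here came from 213 genes on the long arm of chromosome 6, in the stretch from 89 to 135 Mb of the hg19 build. They were measured in a bronchial epithelial line and in an edited clone of it that skips exon 14 of the receptor gene MET. A gene was kept if its probe lay in that stretch and stood well above background on at least 4 of 16 arrays, and the brightest probe spoke for each gene name. Genes were kept whichever way they differed. The array carried 385 gene names there after 14 names were left out by the rule (COL10A1 and the LINC symbols), and 213 of 26368 gene names passed in all. Of the names that did not pass, 131 were above background on no array and 41 on 1 to 3. The stretch itself was picked because many of its genes were lower in the clone, so the members were selected on the comparison of the 2 genotypes, and the values of that comparison are given as a description without a test. The response to the ligand HGF was not used in the choice and was tested.

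16HBE is the 16HBE14o- line, human bronchial epithelial cells immortalised with SV40 large T antigen, and is here called 16HBE-WT in its unedited form. 16HBE-ex14 is 1 clone in which CRISPR/Cas9 cutting at the end of MET exon 14 leads to a receptor without the juxtamembrane stretch that exon encodes, so what the clone carries besides the edit cannot be told apart from the edit. Serum was withdrawn for 2 h and HGF was then given at 20 ng/mL for 24 h, or left out. The treated groups are 16HBE-WT+HGF and 16HBE-ex14+HGF, the untreated ones 16HBE-WT and 16HBE-ex14, and each of the 4 groups has 4 one-colour arrays. The methods describe 4 replicates separated by a week of culture, but nothing ties an array to a week, and replicate numbers here only name arrays. All values are log2 intensities relative to the 75th percentile of the same array, so 0 is the level of that percentile, and levels of different probes are not set against each other.

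Genes that neighbour each other on a human chromosome arm mostly belong to unrelated pathways. The stretch of 6q holds, among others, a chromatin deacetylase (HDAC2), a kinetochore protein (CENPW), enzymes of coenzyme Q synthesis (COQ3 and PDSS2), a core autophagy protein (ATG5), the kinase MAP3K7 of the TGF-beta and NF-kappaB pathways, a Src-family kinase (FYN) and the actin-binding protein MARCKS. MET is the receptor of HGF, and its exon 14 encodes a juxtamembrane stretch through which the active receptor is taken for degradation.

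On the 16 arrays the 75th percentile of intensity ran from 138 to 260, and 49% to 60.3% of probes stood well above background. The percentile went with genotype. Without HGF it ran from 155.4 to 210.7 in 16HBE-WT and from 209 to 238.5 in 16HBE-ex14. With HGF it ran from 138.4 to 189.3 in 16HBE-WT+HGF and from 200.5 to 259.8 in 16HBE-ex14+HGF. The lowest value well above background was also lower in the clone (-4.93 to -4.41) than in the wild type (-4.37 to -3.76). All values are relative to this percentile, and the part of its difference between genotypes was not tested. All 6 epithelial markers were above background on all 16 arrays. Of the markers of other cell types, the fibroblast genes COL1A1 and PDGFRB, the endothelial genes VWF and CDH5 and the leukocyte genes PTPRC and CD3E were also above background on all 16 arrays, with group means between -3.72 and -1.35. COL1A2 (fibroblast) and PECAM1 (endothelial) were above background on no array. The fibroblast gene LUM was above background on 8 arrays and had a mean of -2.93 in 16HBE-WT and -6.59 in 16HBE-ex14. COL1A1 had a mean of -1.35 in 16HBE-WT and -1.91 in 16HBE-ex14, and CD3E of -2.74 and -3.72. The part of such cells or transcripts in the results was not tested. The probe of MET lies at the 3' end of the gene (chr7:116438290-116438349), away from exon 14, and so does not check the genotype labels. Without HGF it read 4.98 ± 0.17 (SD, n = 4) in 16HBE-WT and 5.11 ± 0.15 in 16HBE-ex14, and with HGF 5.01 ± 0.12 and 5.18 ± 0.10, so that the groups overlapped. The label of the 16HBE-WT+HGF arrays carries a different code in the title from that in the description, and the description was followed. In bulk RNA, fewer cells that carry a transcript and less of it per cell cannot be told apart.

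Most of the 213 genes were lower in the clone, and by a similar amount with and without HGF. The median difference of 16HBE-ex14 from 16HBE-WT was -0.39 (quartiles -0.67 and -0.10), a 1.31-fold lower level, and that of 16HBE-ex14+HGF from 16HBE-WT+HGF was -0.36 (quartiles -0.61 and -0.04), or 1.28-fold. Over all 26368 gene names the same medians were -0.02 and 0.01. The 132 members that are protein-coding RefSeq genes of chromosome 6 had medians of -0.52 and -0.49, whereas the other 81 members, mostly long non-coding or unnamed transcripts, had -0.12 and -0.14. The mean was below 0 in both comparisons for 153 members (71.8%) and above 0 in both for 27 (12.7%). Among the protein-coding members 112 (84.8%) were below 0 in both.

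In 82 of 213 members (38.5%) every 16HBE-ex14 array was below every 16HBE-WT array, as it was for 9.88% of all gene names. With HGF 76 members (35.7%) were separated in that way, against 11.3% of all gene names. The 57 members that were lower on every array in both comparisons made up 26.8% of the list, against 6.45%. In the other direction every 16HBE-ex14 array was above every 16HBE-WT array for 4 members (1.88%, all gene names 11.2%), and with HGF for 6 members (2.82%, all gene names 12.7%). These counts follow from how the stretch was picked and are given for their size only.

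The lower values were carried by every array of the clone. For each array the difference of each member from its own 16HBE-WT mean was taken, and the median over the members was -0.41 ± 0.08 (SD, n = 4) on the 16HBE-ex14 arrays, with a range of -0.53 to -0.37. It was -0.32 ± 0.04 on the 16HBE-ex14+HGF arrays, with a range of -0.36 to -0.28. The 16HBE-WT arrays lay between -0.02 and 0.03 and the 16HBE-WT+HGF arrays between -0.00 and 0.06. Over all gene names the same median stayed between -0.04 and 0.09 on the 16 arrays. The lowest array, 16HBE-ex14 replicate 2 at -0.53, stood apart from the other 16HBE-ex14 arrays, the nearest of which was at -0.38. The arrays of the 4 groups were spread over 2 slides, and the median differences were -0.41 and -0.39 on slide 1 and -0.39 and -0.35 on slide 2. All 57 members separated in both comparisons had mean differences below 0 on each slide, which follows from that separation and is no further check.

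**Figure D1:**
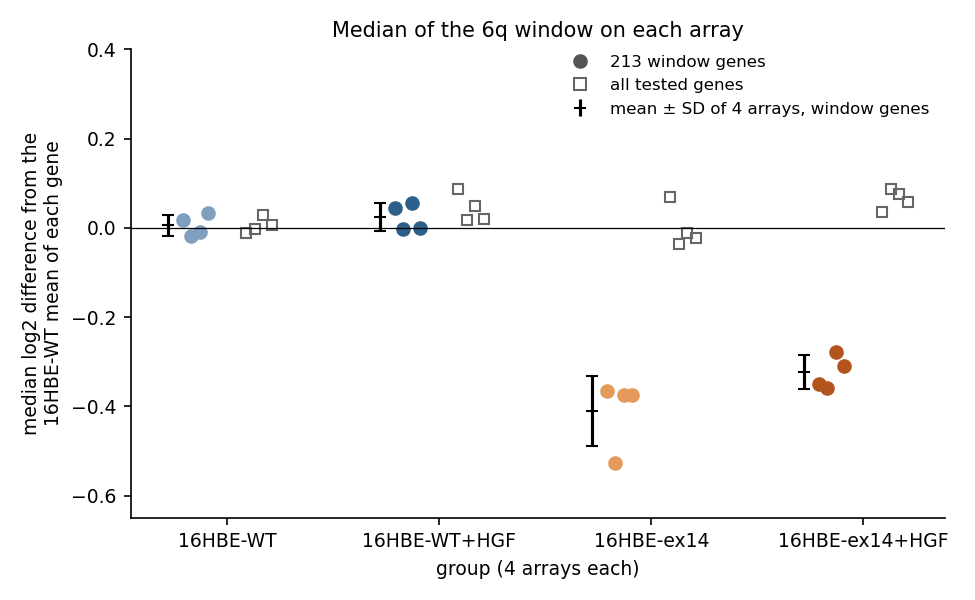
Filled points give, for each array, the median over the 213 members of the log2 difference from each member's own 16HBE-WT mean, open squares the same median over all tested gene names, and bars the mean ± SD of the 4 arrays of a group for the members. The 8 arrays of the clone sit between -0.53 and -0.28 for the members, while the medians over all gene names lie between -0.04 and 0.09 on every array.

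The pattern did not stop at the borders of the stretch, nor was it even within it. Cut into consecutive blocks of 20 members (13 in the last), the median difference without HGF ran from -0.54 to -0.17 and with HGF from -0.48 to -0.05. The block nearest to 0 began at TRAF3IP2 and ended at lnc-FRK-1 (medians -0.17 and -0.05), although it holds MARCKS and HDAC2. The block of FRK to CEP85L had 9 members lower on every array in both comparisons, the highest count among the blocks. Outside the stretch, the 112 tested genes of 6q nearer the centromere had medians of -0.35 and -0.32, and the 259 nearer the telomere -0.24 and -0.27. The 788 genes of 6p had -0.09 and -0.08. The medians of the other 21 autosomes, each taken whole, ran from -0.18 to 0.24 without HGF and from -0.14 to 0.23 with it. Chromosome 6 taken whole had -0.17 and -0.17.

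**Figure D2:**
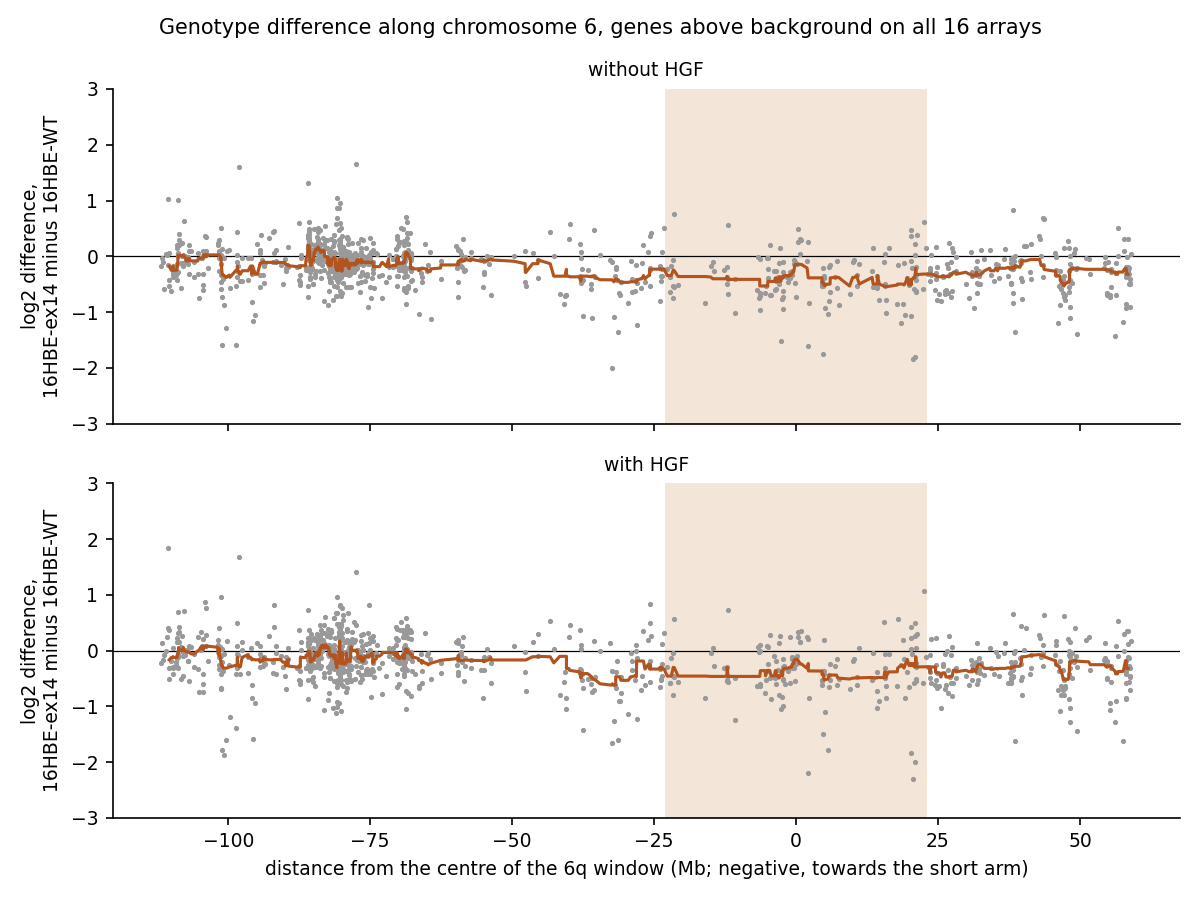
Genotype difference (log2, clone minus wild type) of the genes of chromosome 6 that were above background on all 16 arrays, by distance in Mb from the centre of the stretch, without HGF (top) and with it (bottom), with the stretch shaded and a running median as a line. The 144 members shown have medians of -0.39 and -0.37, and the line stays below 0 on most of 6q outside the shading too.

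Near the border at 89 Mb, the last tested genes outside were ORC3, a subunit of the origin recognition complex (-0.22 and -0.25, without and with HGF), AKIRIN2, a nuclear regulator of inflammatory genes (-0.36 and -0.46), AF119870 (0.07 and 0.11), lnc-ORC3-1 (-0.37 and -0.83) and SPACA1, a sperm acrosome protein (0.50 and 0.31). The earliest inside were RNGTT, the mRNA capping enzyme (-0.23 and -0.30), AK130540 (-0.15 and -0.50), PNRC1, a nuclear receptor coactivator (-0.37 and -0.59), SRSF12, a splicing factor (at least 2.78-fold and 2.12-fold higher, as it was not well above background in the wild type), and PM20D2, a peptidase (-0.64 and -0.59). At the border at 135 Mb the members were SGK1, a serum- and glucocorticoid-induced kinase (0.62 and 1.06), lnc-PARP16-1 (-0.12 and -0.71), LOC101928304 (0.57 and 0.32), XLOC_l2_013125 (0.14 and -0.11) and ENST00000452888 (-1.42 and -2.00). Another probe of LOC101928304, above background on 8 arrays, read 2.50 and 1.63. ENST00000452888 was above background on 11 arrays and overlapped without HGF. Beyond the border at 135 Mb came ALDH8A1, an aldehyde dehydrogenase (-0.48 and -0.44), HBS1L, a ribosome rescue factor (-0.32 and -0.29), the transcription factor gene MYB (-0.22 and -0.39), lnc-MYB-1 (-0.26 and -0.08) and lnc-MYB-2 (-0.44 and -0.49). The 20 tested genes just before the stretch had medians of -0.23 and -0.22, nearer to 0 than the -0.52 and -0.47 of the 20 members that follow them. At the other border the last 13 members had medians of -0.33 and -0.29 and the 20 tested genes just after them -0.35 and -0.34. At the detection limit, 9 members were above background on exactly 4 arrays, and 8 names missed the limit with 3.

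The genes that were lowest in the clone encode proteins of unrelated kinds, among them the RNA-binding protein LIN28B, the actin-binding protein MARCKS and the pantetheinase VNN1. They were taken as the 10 members with the lowest mean of both differences among those whose arrays did not overlap in either comparison. Here and in what follows, ± after a difference is its SD, from the SDs of both groups of 4 arrays.

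LIN28B encodes an RNA-binding protein that blocks maturation of let-7 microRNAs and is mostly a fetal gene (probe at chr6:105531071-105531130, hg19). It read -2.21, -2.38, -2.23 and -1.82 in 16HBE-WT and -5.31, -5.63, -4.42 and -5.64 in 16HBE-ex14. With HGF it read -1.52, -1.76, -2.06 and -2.01 in 16HBE-WT+HGF and -4.68, -4.85, -4.69 and -5.75 in 16HBE-ex14+HGF. All 8 wild-type arrays were well above background and none of the 8 arrays of the clone was. The level was therefore at least 5.18-fold lower in the clone without HGF and at least 6.81-fold lower with it, counted against the lowest signal that passed as above background on each array.

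MARCKS, a substrate of protein kinase C that binds actin and membrane phosphoinositides (chr6:114182911-114182970), read 6.30, 6.01, 6.15 and 6.19 in 16HBE-WT and 4.42, 4.83, 4.16 and 4.79 in 16HBE-ex14. With HGF the values were 5.94, 6.11, 5.72 and 6.05 in 16HBE-WT+HGF and 3.89, 3.71, 3.59 and 3.83 in 16HBE-ex14+HGF. The groups were more than 1 log2 unit apart at their nearest arrays, and MARCKS was 3.06-fold lower without HGF (-1.62 ± 0.34) and 4.60-fold lower with it (-2.20 ± 0.22). MOXD1, a monooxygenase-like protein of the endoplasmic reticulum (chr6:132617386-132617445), read 0.56, 0.01, 0.33 and 0.53 in 16HBE-WT and -1.72, -1.39, -1.58 and -1.24 in 16HBE-ex14. With HGF it read 0.09, 0.10, -0.33 and 0.18 in 16HBE-WT+HGF and -2.66, -2.24, -2.03 and -2.26 in 16HBE-ex14+HGF. Its lower level in the clone, 3.58-fold and 4.94-fold, was seen on every array.

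ENPP1, the cell-surface enzyme that makes pyrophosphate from ATP (chr6:132211871-132211930), read 2.06, 1.64, 2.13 and 2.14 in 16HBE-WT and 0.68, 1.17, 0.71 and 1.14 in 16HBE-ex14. The values with HGF were 1.63, 1.63, 1.51 and 1.89 in 16HBE-WT+HGF and -0.05, -0.20, -0.25 and -0.16 in 16HBE-ex14+HGF. The differences were -1.07 ± 0.36 and -1.84 ± 0.18, and a second probe of ENPP1 differed by -0.74 and -1.65. VNN1, a pantetheinase that releases cysteamine (chr6:133002801-133002860), lay between 1.66 and 2.03 in 16HBE-WT and between -0.12 and 0.23 in 16HBE-ex14, a difference of -1.81 ± 0.22. With HGF VNN1 lay between 1.75 and 1.97 in 16HBE-WT+HGF and between -0.27 and 0.01 in 16HBE-ex14+HGF, a difference of -2.00 ± 0.16. Its family member VNN2 differed less, by -0.42 ± 0.20 and -0.23 ± 0.21, and overlapped with HGF. CALHM6, a channel-forming protein of the calcium homeostasis modulator family (chr6:116784695-116784754), read 2.01, 2.19, 2.01 and 2.32 in 16HBE-WT against 0.49, 0.22, 0.69 and 0.13 in 16HBE-ex14. It differed by -1.75 ± 0.30 without HGF and by -1.49 ± 0.30 with it.

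SESN1, a stress-induced inhibitor of mTORC1 (chr6:109308477-109308536), read -1.91, -1.71, -2.16 and -2.00 in 16HBE-WT and -3.43, -3.39, -3.73 and -3.35 in 16HBE-ex14. Its difference was -1.53 ± 0.25 without HGF and -1.04 ± 0.55 with it. FRK, a Src-related tyrosine kinase of epithelia (chr6:116263186-116263245), differed by -1.65 ± 0.73 and -1.90 ± 0.59. All 4 arrays of each wild-type group were above background for FRK but only 1 of 4 in each group of the clone, so its lower values sit at the edge of detection. The same holds for lnc-HDAC2-2, above background on 3 of 4 16HBE-ex14 and 1 of 4 16HBE-ex14+HGF arrays, with differences of -1.90 ± 0.65 and -2.57 ± 0.61. The long non-coding transcript lnc-GRIK2-2 was above background on all 16 arrays and differed by -1.02 ± 0.23 and -1.24 ± 0.39.

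A few members were higher in the clone. SRSF12, a serine- and arginine-rich regulator of splicing (chr6:89805730-89805789), read -2.93, -2.72, -3.09 and -2.48 in 16HBE-ex14 and was not well above background on any of the 8 wild-type arrays, where it read from -6.16 to -3.92. It was at least 2.78-fold higher in the clone without HGF and at least 2.12-fold higher with it, and the arrays did not overlap in either comparison. The probe A_32_P230825, which has no gene name in the file, was higher by 0.76 ± 0.32 and 0.57 ± 0.39, also without overlap. PRDM13, a zinc-finger protein of the PRDM family, was the third member higher on every array in both (0.56 ± 0.35 and 0.73 ± 0.34) and was looked up after its values were seen. A second PRDM13 probe, above background on 13 arrays, read the other way, at -1.41 ± 0.82 and -0.95 ± 0.96, so the direction of PRDM13 rests on the probe. CEP85L, a centrosomal protein, was higher by 1.21 ± 0.26 over 3 usable 16HBE-WT arrays and by 0.66 ± 0.44 with HGF, where the arrays overlapped. SGK1 read 2.11, 2.48, 3.35 and 2.45 in 16HBE-WT and 3.03, 3.55, 3.21 and 3.06 in 16HBE-ex14. With HGF it read 2.51, 2.44, 2.84 and 3.45 in 16HBE-WT+HGF and 4.18, 3.30, 4.06 and 3.97 in 16HBE-ex14+HGF, so its groups overlapped in both comparisons. SELENOKP3, a pseudogene, differed by 0.74 ± 0.86 and 0.59 ± 1.06 and was above background on 6 arrays in all.

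**Figure D3:**
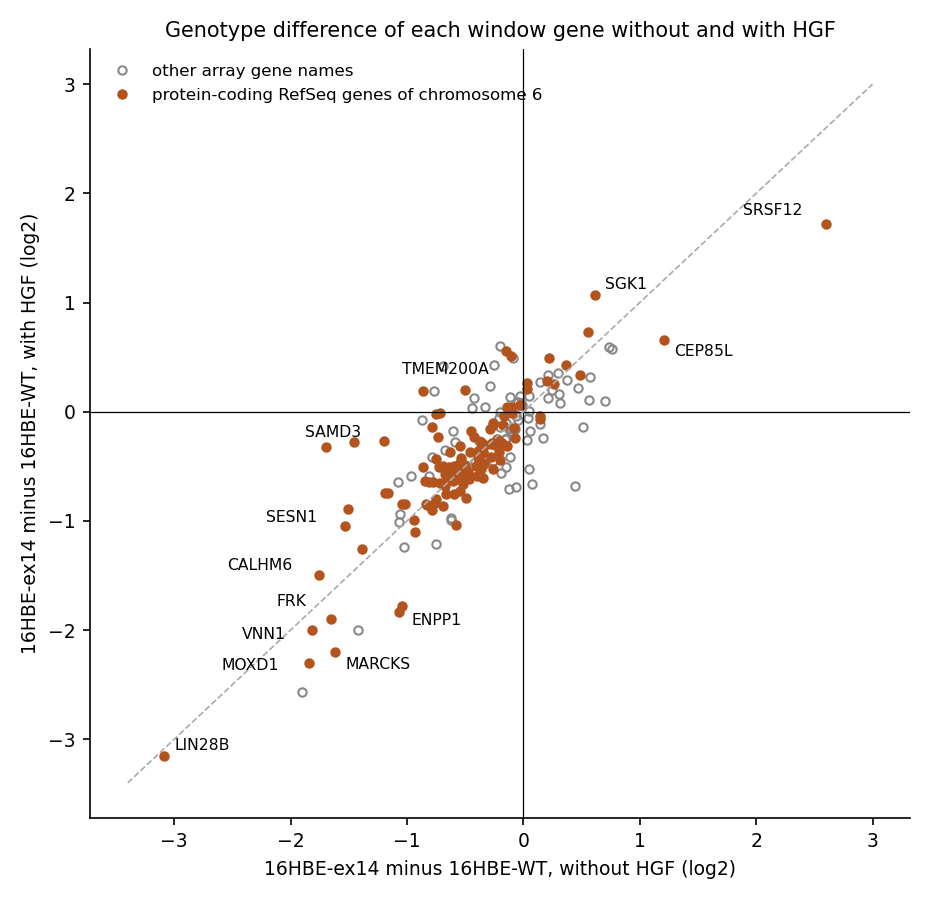
Genotype difference (log2) without HGF on the horizontal axis against that with HGF on the vertical axis, 1 point per member, with the members of largest difference named. Most points lie below 0 on both axes. LIN28B (at least 5.18-fold and 6.81-fold lower) and SRSF12 (at least 2.78-fold and 2.12-fold higher) are drawn at their measured values, although 1 genotype was not well above background for them.

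The differences without and with HGF come from separate arrays of the same clone, and across the 213 members Pearson's r between them was 0.81 and Spearman's rho 0.74. Over the 144 members above background on all 16 arrays, r was 0.86 and rho 0.83. Genes are not independent replicates, and both sets of arrays share probes, slides, the clone and its parent line. The members were also picked on the genotype comparison, so these correlations are a description only. They are not set beside those over all gene names. The mean difference of a member was not tied to its brightness (r = 0.04 across members). Of 61 members with further tested probes, the mean difference over the other probes had the sign of the brightest probe for 55. Single probes could still differ, and most members were below 0 to begin with, which alone favours such agreement. For CEP85L another probe read 1.52 and 1.09, but with outlier spots kept a different probe was the brightest and read -1.08 without HGF. For RNGTT the other probe read 0.34 without HGF.

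Sorted by function, the members had medians below 0 in every class, both without and with HGF. The counts per class are descriptions of size, to be read beside the 40.9% of protein-coding members and 6.45% of all gene names that were lower on every array in both comparisons. The 11 members of the list for mitochondria and energy had medians of -0.39 and -0.36, and 6 of them were lower on every array in both comparisons. PDSS2, a subunit of the prenyl transferase that makes the side chain of coenzyme Q, read 1.09, 1.09, 0.97 and 1.29 in 16HBE-WT and 0.29, 0.39, 0.59 and 0.43 in 16HBE-ex14. With HGF it read 1.16, 1.25, 1.40 and 1.19 in 16HBE-WT+HGF and 0.39, 0.18, 0.47 and 0.51 in 16HBE-ex14+HGF. Another PDSS2 probe differed by -0.34 and -0.02 and overlapped with HGF. COQ3, a methyltransferase of the same pathway, differed by -0.49 ± 0.28 and -0.55 ± 0.21. HDDC2, a nucleotide phosphohydrolase (-0.56 ± 0.18 and -0.49 ± 0.18), ECHDC1, which clears a side product of fatty acid synthesis (-0.50 ± 0.22 and -0.49 ± 0.28), and LYRM2, a small LYR-motif protein (-0.75 ± 0.25 and -0.80 ± 0.19), were also separated in both, though another probe of LYRM2 read -0.47 and -0.21 and overlapped with HGF. NDUFAF4, an assembly factor of respiratory complex I, was not, at -0.10 ± 0.37 and 0.04 ± 0.57.

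The 15 members of transcription and RNA processing had medians of -0.37 and -0.38, with 4 lower on every array in both and 1, SRSF12, higher. CCNC, the cyclin of the Mediator kinase module, read 2.11, 2.25, 1.90 and 2.27 in 16HBE-WT and 1.71, 1.16, 1.55 and 1.42 in 16HBE-ex14 (-0.67 ± 0.29) and overlapped with HGF (-0.57 ± 0.50). Its kinase CDK19 differed by -0.39 ± 0.30 and -0.59 ± 0.30, and the Mediator subunit MED23 by -0.52 ± 0.50 and -0.66 ± 0.29. TBPL1, a TBP-like initiation factor (-0.59 ± 0.13 and -0.58 ± 0.19), and CDC40, a splicing factor (-0.46 ± 0.17 and -0.37 ± 0.13), were separated in both. The brightest members of the class, RPS12, a ribosomal protein (-0.19 ± 0.48 and -0.29 ± 0.40), and GTF3C6, a subunit of transcription factor TFIIIC (-0.29 ± 0.26 and -0.16 ± 0.21), overlapped in both.

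Of the 14 members of DNA replication, chromatin and division, with medians of -0.41 and -0.42, 7 were lower on every array in both. HDAC2, a histone deacetylase of the NuRD and Sin3 complexes, read 4.23, 4.16, 4.13 and 4.41 in 16HBE-WT and 3.37, 3.20, 3.52 and 3.52 in 16HBE-ex14. With HGF it read 3.83, 4.13, 4.59 and 4.20 in 16HBE-WT+HGF and 3.04, 3.07, 3.52 and 3.70 in 16HBE-ex14+HGF, or 1.78-fold and 1.81-fold lower. A dimmer HDAC2 probe differed by -0.36 and -0.66 with overlap. CENPW, of the inner kinetochore, had some of the tightest groups, at 4.53, 4.76, 4.50 and 4.47 in 16HBE-WT against 3.78, 3.88, 3.70 and 3.75 in 16HBE-ex14. Its differences were -0.79 ± 0.15 and -0.90 ± 0.14. CEP57L1, a centrosomal protein (-0.76 ± 0.22 and -0.84 ± 0.40), was lower on every array too. The probes of MCM9, a helicase of homologous recombination, disagreed. Its brightest was lower on every array (-0.58 ± 0.30 and -0.62 ± 0.26), while others overlapped at -0.01 and 0.08 and at -0.13 and -0.37, and the last read -0.75 and -0.23. TUBE1, which encodes epsilon tubulin, ran the other way at 0.26 ± 0.14 and 0.25 ± 0.43 and overlapped.

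Of the 21 genes of ubiquitin, autophagy, lysosome and membrane traffic, with medians of -0.54 and -0.53, 14 were lower on every array in both. SNX3, a sorting nexin that works with the retromer coat on endosomes, read 5.67, 5.70, 5.50 and 5.78 in 16HBE-WT and 5.07, 5.01, 5.13 and 5.06 in 16HBE-ex14, and differed by -0.59 in both comparisons (± 0.13 and ± 0.27). Another SNX3 probe read -0.73 and -0.64 and was separated in both, while a further one read -0.31 and -0.42 and overlapped in both. ATG5, which is joined to ATG12 to lipidate LC3, read 3.47, 3.46, 3.17 and 3.45 in 16HBE-WT and 3.10, 2.61, 2.88 and 2.82 in 16HBE-ex14, with differences of -0.53 ± 0.25 and -0.53 ± 0.31. KPNA5, an importin alpha, differed by -0.93 ± 0.23 and -1.10 ± 0.35, and SMPD2, a neutral sphingomyelinase, by -0.94 ± 0.31 and -0.99 ± 0.22. Another KPNA5 probe read -0.49 and -0.61 and overlapped without HGF. SERINC1, a membrane protein (-0.53 ± 0.21 and -0.61 ± 0.11), STX7, an endosomal syntaxin (-0.59 ± 0.13 and -0.58 ± 0.19), and MANEA, a Golgi mannosidase (-0.84 ± 0.22 and -0.85 ± 0.27), were also separated. Another STX7 probe read -0.55 and -0.56 and overlapped with HGF. UFL1, the ligase that attaches UFM1 to proteins, differed by -0.17 ± 0.21 and -0.04 ± 0.25, and UBE2J1, a ubiquitin-conjugating enzyme of the endoplasmic reticulum, by -0.18 ± 0.33 and -0.12 ± 0.21, with overlap.

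Among the 21 signalling genes and transcription factors (medians -0.51 and -0.55) 9 were lower on every array in both, LIN28B, MARCKS, FRK and SESN1 among them. FOXO3, a forkhead transcription factor held in check by AKT, differed by -0.49 ± 0.25 and -0.79 ± 0.14, and 2 other probes of it differed by -0.61 and -0.58, and by -0.46 and -0.70. MAP3K7 (TAK1) differed by -0.51 ± 0.14 and -0.56 ± 0.20, TRAF3IP2, an adaptor of the IL-17 receptor, by -0.48 ± 0.18 and -0.55 ± 0.18, and HSF2, a heat shock factor, by -0.34 ± 0.13 and -0.48 ± 0.19. RRAGD, a Rag GTPase that brings mTORC1 to lysosomes, was lower on every array without HGF (-1.45 ± 0.61) but overlapped with it (-0.27 ± 0.67). CCN2, a matricellular growth factor (0.36 ± 0.57 and 0.42 ± 0.67), PTPRK, a receptor phosphatase (0.14 ± 0.18 and -0.06 ± 0.17), and TPD52L1 (0.14 ± 0.12 and -0.04 ± 0.08) overlapped. Another TPD52L1 probe read -0.06 and -0.33 and was lower on every array with HGF.

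The 14 genes of matrix, adhesion and cytoskeleton were the list whose medians differed most between the conditions, at -0.72 without HGF and -0.38 with it, and 5 of them were lower on every array in both. DSE, the epimerase that makes dermatan sulfate, lay between 5.99 and 6.04 in 16HBE-WT and read 5.44, 5.45, 5.59 and 5.46 in 16HBE-ex14. With HGF it read 6.10, 6.10, 6.04 and 6.02 in 16HBE-WT+HGF and 5.63, 5.63, 5.65 and 5.64 in 16HBE-ex14+HGF. Its differences, -0.54 ± 0.07 and -0.42 ± 0.04, were small but many times their spread between arrays. With normexp, quantile normalization or scaling by the array median, each moved by more than that SD. EPB41L2, a linker of spectrin and actin, differed by -1.05 ± 0.10 and -0.84 ± 0.17. CRYBG1 (-0.03 ± 0.21 and 0.06 ± 0.17) and LAMA4, a laminin chain (0.49 ± 0.70 and 0.34 ± 0.57), overlapped in both. The muscle and epithelial membrane proteins BVES and POPDC3 were lower on every array without HGF (-0.75 ± 0.30 and -0.72 ± 0.35) and overlapped with it (-0.02 ± 0.52 and -0.02 ± 0.35). Of the 12 metabolic enzymes and transporters, with medians of -0.59 and -0.52, 6 were lower on every array in both. PREP, a prolyl endopeptidase (-0.65 ± 0.23 and -0.63 ± 0.18), and SLC18B1, a vesicular polyamine transporter (-0.64 ± 0.20 and -0.51 ± 0.16), were among them. The brightest probe of AMD1, the decarboxylase of polyamine synthesis, overlapped in both (-0.26 ± 0.22 and -0.12 ± 0.16). Another AMD1 probe read -0.34 and -0.33 and was lower on every array in both, so its separation rests on the probe.

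**Figure D4:**
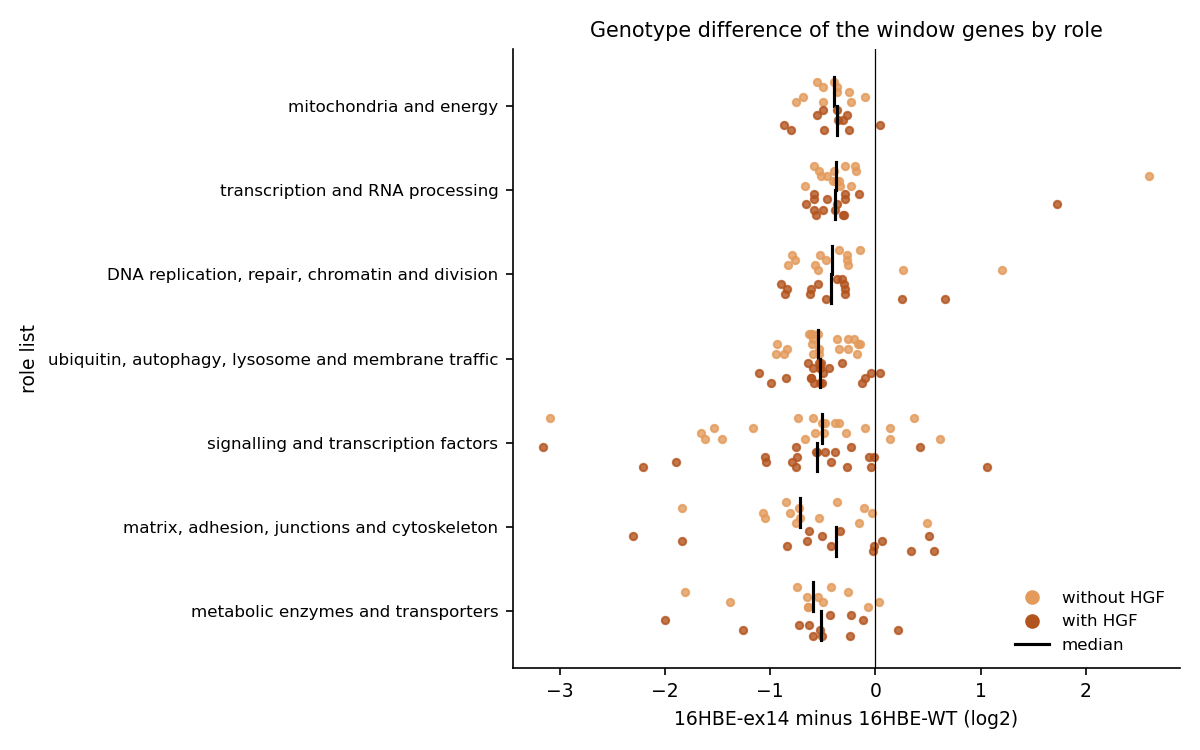
Genotype difference (log2) of the members of 7 lists by function, without and with HGF, 1 point per gene, with the median of each list as a bar. Medians lie between -0.72 and -0.37 without HGF and between -0.55 and -0.36 with it. LIN28B and SRSF12 are drawn at measured values that were not well above background in 1 genotype.

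The response to HGF was tested on the whole array with limma, with Benjamini-Hochberg adjustment over 34600 probes and a call at an adjusted p under 0.05 and a fold of at least 1.5. It uses the 16HBE-ex14 arrays that also enter the genotype differences, so a single such array moves both. In 16HBE-ex14, HGF changed 9 of the 213 genes. It raised 5 members (2.35%, all gene names 1.13%) and lowered 4 (1.88%, all gene names 0.967%), and 29 members (13.6%) had an unadjusted p under 0.05, as did 14.3% of all gene names. Over the members the median response was 0.05, against 0.06 over all gene names. In 16HBE-WT the limma test called 0 members and 0% of all gene names, and 6 members (2.82%) had an unadjusted p under 0.05, against 4.67% of all gene names. The difference between the responses of both genotypes was also called for 0 members and 0% of all gene names, with 13 members (6.1%) at an unadjusted p under 0.05 against 4.56%. The smallest adjusted p over the members was 0.48 for that difference and 0.881 for 16HBE-WT. The standard error of a member's response had a median of 0.188 in 16HBE-ex14 and that of the difference between responses 0.266, so a gene called in the clone is not shown to respond differently in 16HBE-WT.

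The genes that fell with HGF were ENPP1, MARCKS, NCOA7 and MOXD1. ENPP1 fell by 1.09 (SE 0.143, 95% interval -1.40 to -0.79, limma adjusted p = 0.00157), or 2.13-fold, and each 16HBE-ex14+HGF array was below each 16HBE-ex14 array. The response in 16HBE-WT was -0.33, and the difference between the responses -0.77 (SE 0.202, adjusted p = 0.562). A second ENPP1 probe was called too, at -1.20. MARCKS fell by 0.80 (SE 0.143, limma adjusted p = 0.00819), or 1.74-fold, with -0.21 in 16HBE-WT and a difference between responses of -0.59 (adjusted p = 0.89). MOXD1 fell by 0.82 (SE 0.167, limma adjusted p = 0.0161), with -0.35 in 16HBE-WT. NCOA7, a coactivator of nuclear receptors with a role in oxidation resistance (chr6:126251879-126251938), read 3.77, 4.13, 3.74 and 4.13 in 16HBE-ex14 and 3.30, 3.21, 3.15 and 3.05 in 16HBE-ex14+HGF. It fell by 0.76 (SE 0.144, limma adjusted p = 0.0106), while it read 4.57, 4.14, 4.65 and 4.70 in 16HBE-WT and 4.31, 4.24, 3.93 and 4.37 in 16HBE-WT+HGF.

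The genes that rose with HGF were TMEM200A, SAMD3, THC2691182, POPDC3 and FYN. In each the mean of the clone was below that of the wild type without HGF, and the genotypes overlapped with HGF. TMEM200A, a transmembrane protein of little-known function (chr6:130763993-130764052), read 0.27, -0.31, 1.59 and 0.48 in 16HBE-ex14 and 1.73, 2.01, 2.69 and 2.18 in 16HBE-ex14+HGF. It rose by 1.64 (SE 0.322, limma adjusted p = 0.0128), or 3.12-fold, and by 0.59 in 16HBE-WT, where the test was not passed (adjusted p = 1). The 16HBE-WT arrays read 0.93, 1.39, 1.40 and 1.75, and the 16HBE-WT+HGF arrays 2.04, 1.72, 2.22 and 1.84.

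POPDC3, of the Popeye family of cAMP-binding membrane proteins (chr6:105606409-105606468), read -0.34, -0.52, 0.07 and -0.65 in 16HBE-ex14 and 0.48, 0.33, 0.59 and 0.63 in 16HBE-ex14+HGF, a rise of 0.87 (SE 0.172, limma adjusted p = 0.0138). The wild-type arrays, at 0.38, 0.37, 0.14 and 0.53 without HGF and 0.56, 0.29, 0.97 and 0.27 with it, covered the level of the treated clone. FYN, a Src-family kinase (chr6:111982711-111982770), read 0.74, 0.97, 1.27 and 1.03 in 16HBE-ex14 and 1.61, 1.49, 1.76 and 1.60 in 16HBE-ex14+HGF, a rise of 0.61 (SE 0.121, limma adjusted p = 0.0141). Its 16HBE-WT arrays read 1.65, 1.89, 1.79 and 1.60 and its 16HBE-WT+HGF arrays 1.64, 1.80, 1.93 and 2.01.

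SAMD3, a SAM-domain protein (chr6:130465781-130465840), and THC2691182, an unnamed transcript on the same stretch (chr6:130454118-130454177), were dim. SAMD3 rose by 1.29 (SE 0.296, limma adjusted p = 0.0296), from -3.48, -4.27, -2.30 and -3.59 to -1.98, -2.33, -1.77 and -2.39, and the 16HBE-ex14 array at -2.30 overlapped with the treated arrays. THC2691182 rose by 1.22 (SE 0.266, limma adjusted p = 0.0227), from -3.78, -3.60, -3.54 and -4.97 to -2.50, -2.97, -2.60 and -2.93. ARHGAP18, a RhoA GTPase-activating protein that was looked up after its values were seen, passed on p but not on fold, with a rise of 0.58 (limma adjusted p = 0.0212, 1.49-fold). It was lower on every array of the clone without HGF (-0.15 ± 0.11) and higher on every array with it (0.56 ± 0.31).

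The calls of ENPP1, MARCKS and NCOA7 held in each of the 26 other settings tried, arrays left out in turn included. That of TMEM200A was lost without 16HBE-ex14+HGF replicate 3, and that of MOXD1 without 16HBE-ex14 replicate 2 or 4 and with normexp background correction. The call of POPDC3 was lost with scaling by the array median and those of FYN, THC2691182 and SAMD3 with that scaling and with normexp, SAMD3 also with no filter on dim probes. Each of these 4 calls was also lost when some single arrays were left out, 16HBE-ex14+HGF replicate 3 in every case. The count of 9 called members fell to 5 without 16HBE-ex14 replicate 2 and to 4 without 16HBE-ex14+HGF replicate 3.

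**Figure D5:**
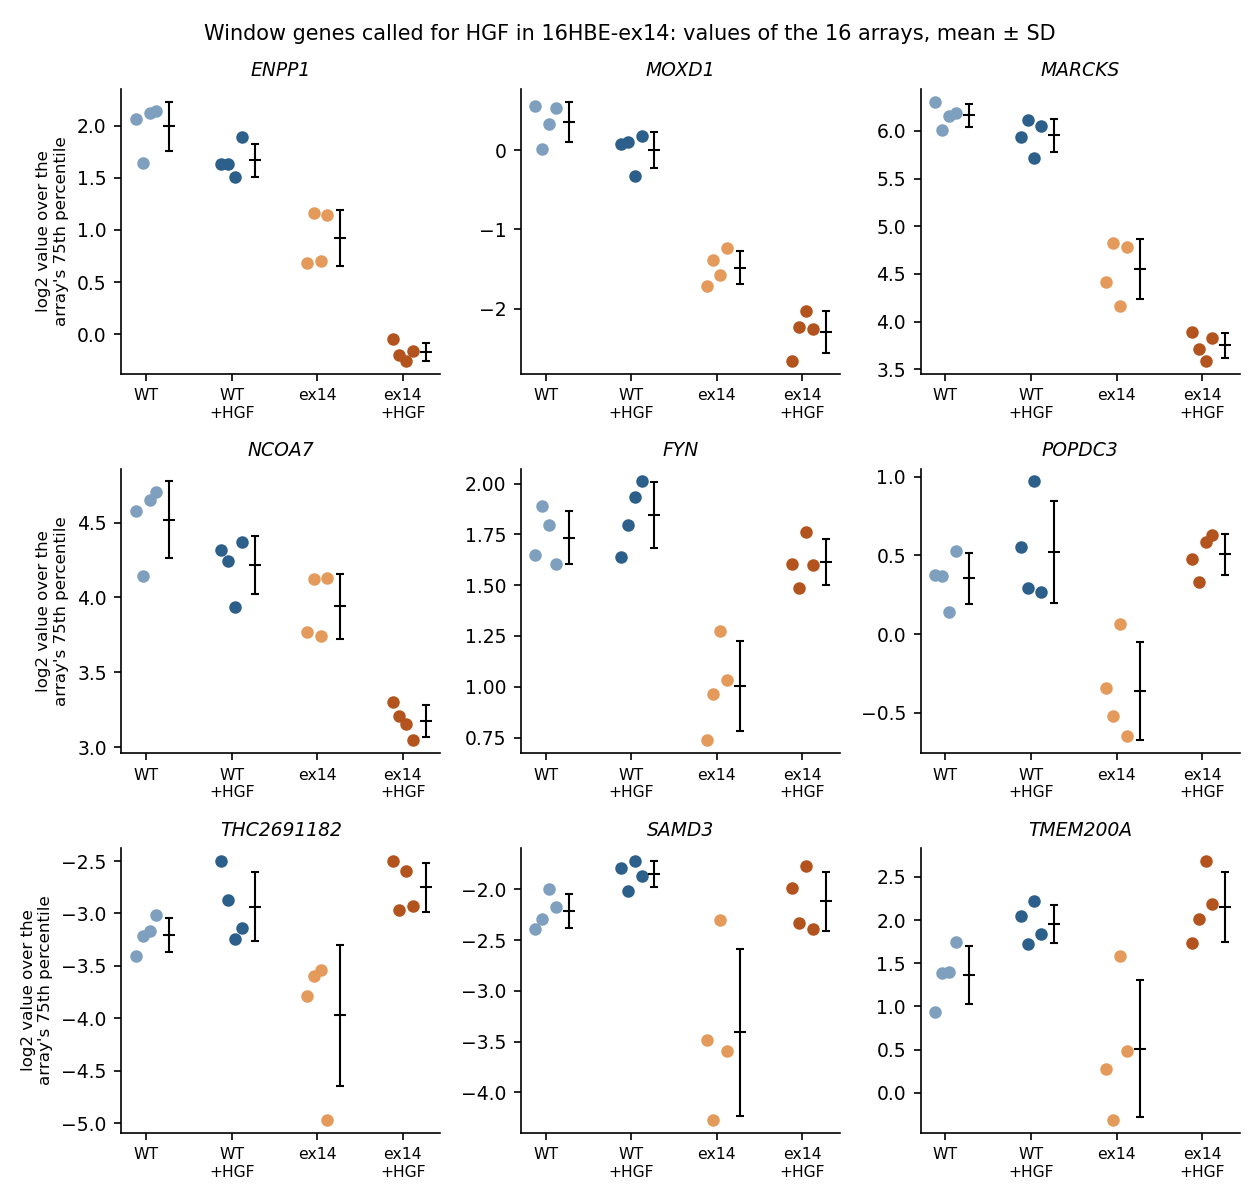
Log2 intensity relative to the 75th percentile, per array, of the 9 members called for HGF in 16HBE-ex14, in the 4 groups of 4 arrays, with the mean ± SD of each group. ENPP1, MARCKS, NCOA7 and MOXD1 fall from 16HBE-ex14 to 16HBE-ex14+HGF, the other 5 rise, and the 16HBE-WT groups change less.

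The promoters of the HGF-responsive members that have a single start in the RefSeq table were read for ENPP1, MARCKS, MOXD1 and TMEM200A, so that the genes that fell can be set beside the strongest that rose. Each is the 250 bases before the transcription start in GRCh38.p14, a build other than hg19, written 5′ to 3′ on the strand of the gene: ENPP1 at chr6:131807770-131808019 (plus strand), MARCKS at chr6:113857095-113857344 (plus), MOXD1 at chr6:132401476-132401725 (minus) and TMEM200A at chr6:130365767-130366016 (plus). Capitals mark GC boxes, which are GGGCGG on either strand.
ENPP1: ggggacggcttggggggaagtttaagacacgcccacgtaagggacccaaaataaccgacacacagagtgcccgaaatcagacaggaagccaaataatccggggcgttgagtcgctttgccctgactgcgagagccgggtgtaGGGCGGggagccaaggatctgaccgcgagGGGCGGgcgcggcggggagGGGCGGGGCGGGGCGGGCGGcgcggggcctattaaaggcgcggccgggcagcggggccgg
MARCKS: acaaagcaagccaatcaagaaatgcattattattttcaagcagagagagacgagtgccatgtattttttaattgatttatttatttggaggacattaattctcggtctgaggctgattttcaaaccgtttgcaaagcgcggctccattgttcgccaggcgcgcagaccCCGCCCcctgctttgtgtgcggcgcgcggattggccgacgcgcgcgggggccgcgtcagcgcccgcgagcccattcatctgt
MOXD1: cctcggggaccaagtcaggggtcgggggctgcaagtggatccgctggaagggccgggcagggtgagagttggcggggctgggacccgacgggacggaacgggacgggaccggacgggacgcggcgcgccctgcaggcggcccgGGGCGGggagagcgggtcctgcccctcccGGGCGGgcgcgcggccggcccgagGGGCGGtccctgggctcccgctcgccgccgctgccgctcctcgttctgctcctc
TMEM200A: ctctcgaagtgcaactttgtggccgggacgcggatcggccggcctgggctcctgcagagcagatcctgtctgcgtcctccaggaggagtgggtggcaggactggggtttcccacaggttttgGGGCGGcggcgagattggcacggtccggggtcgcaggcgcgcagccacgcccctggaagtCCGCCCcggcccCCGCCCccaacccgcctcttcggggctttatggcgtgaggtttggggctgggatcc

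ENPP1 held 6 GC boxes, some of them overlapping, MOXD1 and TMEM200A 3 each and MARCKS 1, so the genes that fell and the one that rose are not told apart by this count. The 4 promoters held 28, 23, 34 and 22 CpG dinucleotides for ENPP1, MARCKS, MOXD1 and TMEM200A. In all, 134 members had 196 entries in the RefSeq table, and 57.1% of these entries held a GC box, against 42.6% of the 35116 entries of all genes. A TATAAA motif on the gene's strand or its opposite was found in 10.2% of the members' entries and 10.7% of all entries, and the NRF1 motif in 1.53% and 1.03%. The median number of CpG dinucleotides was 18.5 over the members' entries and 11 over all. For the 72 entries of members lower on every array in both comparisons the shares were 62.5% for the GC box, 9.72% for TATAAA and 1.39% for the NRF1 motif, with a median of 18 CpG. A match of letters is no evidence that a factor binds, and the classes of gene in the list and in the table differ.

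Many members work in complexes whose other subunits are encoded elsewhere, and those partner genes played no part in the choice of the stretch. Of 69 partners listed 68 were tested, none of them in the stretch. No partner was called lower in the clone at a fold of at least 1.5. Below that fold, partners with a limma adjusted p under 0.05 lay on both sides. Examples are MAD2L2, a partner of REV3L (-0.57 and -0.54), and MED16, a partner of MED23 (0.52 and 0.41). The limma test called 3 partners higher (all gene names 4.48%) and 0 lower (4.77%) in 16HBE-ex14 against 16HBE-WT, and 6 higher (5.36%) and 0 lower (5.29%) with HGF, where a call again needs a fold of at least 1.5. The 3 partners became 8 without 16HBE-ex14 replicate 1 and 8 with scaling by the array median. An unadjusted p under 0.05, whatever the fold, was reached by 25 and 32 of the 68 partners. Both shares were above those of all gene names, 30.0% and 31.5%. The median difference over the partners was 0.08 without and 0.10 with HGF.

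The partners that were higher were few, and 3 of them lie on chromosome 16. COQ9, which acts beside COQ3 in coenzyme Q synthesis, was higher by 0.76 (limma adjusted p = 0.000226) and 0.87 (adjusted p = 6.3e-05). VPS35, of the retromer that binds SNX3, was higher by 0.65 (limma adjusted p = 7.6e-05) and 0.60 (adjusted p = 0.000115), and VAC14, the scaffold of FIG4, by 0.82 (limma adjusted p = 0.00176) and 0.82 (adjusted p = 0.00154). The genes of chromosome 16 as a whole had medians of 0.24 and 0.23. VPS26A, also of the retromer, and ASCC1, a partner of ASCC3, lie on chromosome 10, whose medians were 0.12 and 0.15. With HGF VPS26A was higher by 0.68 (limma adjusted p = 0.000282) and ASCC1 by 0.60 (adjusted p = 0.00978), against 0.58 and 0.54 without it. SEC61A1, the pore with which SEC63 works, was higher by 0.59 with HGF (limma adjusted p = 0.00802) and by 0.16 without. The call of SEC61A1 with HGF was lost with quantile normalization and without 16HBE-WT+HGF replicate 2 or 4 or 16HBE-ex14+HGF replicate 3 or 4. That of VPS35 was lost in both comparisons with quantile normalization and with the median over its probes, and with HGF also without 16HBE-ex14+HGF replicate 2 or 16HBE-WT+HGF replicate 2 or 3. That of ASCC1 with HGF was lost with normexp and without 16HBE-WT+HGF replicate 1 or 16HBE-ex14+HGF replicate 3 or 4, and that of VAC14 with HGF with the median over its probes.

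HDAC1, the close relative of HDAC2 that shares its complexes, was lower by a fold under the limit, with differences of -0.44 (limma adjusted p = 0.00405) and -0.37 (adjusted p = 0.0108). The scaffold SIN3A differed by 0.51 without HGF (limma adjusted p = 0.035) and RBBP4 by 0.15 and 0.14 in the comparisons without and with it. Beside CCNC and CDK19, the Mediator kinase module genes were close to 0, with CDK8 at -0.10 and -0.12, MED12 at 0.11 and -0.14, MED13 at 0.21 and 0.02 and MED13L at 0.16 and -0.08. The partners of ATG5 read 0.09 and 0.10 (ATG12) and -0.26 and 0.12 (ATG16L1). Those of MAP3K7 read -0.05 and 0.09 (TAB1) and 0.06 and -0.24 (TAB3). Of the genes that act with UFL1, DDRGK1 differed by -0.35 without HGF (limma adjusted p = 0.00834, under the fold limit), and CDK5RAP3 (0.08 and 0.16), UFM1 (0.14 and 0.35) and UFC1 (-0.19 and -0.24) were not called.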

How the data were processed

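RNA of 16 samples was hybridised to one-colour Agilent 60-mer arrays, and the authors deposited scanner output of Agilent Feature Extraction 10.7.3.1 (version as in the submitters' processing notes) with intensity values per spot. The deposited table of all samples was checked and holds the same intensities as the processed signal of the scanner files. Control spots and outlier flags were left out, and spots of 1 probe were averaged, which gave 58201 probes. From the deposited intensities log2(processed signal) minus the 75th percentile of each array was computed. A probe entered the test if 4 or more of the 16 arrays read it well above background, which left 34600. They were fitted with limma 3.58.1 in R 4.3.3 (with jsonlite 2.0.0), all 4 groups in 1 fit without covariates, with Benjamini-Hochberg adjustment over all of them. A call needed an adjusted p under 0.05 and a fold of at least 1.5. The limma step was tested on simulated data. Figures were drawn in Python 3.11.15 (pandas 2.3.3, matplotlib 3.10.9).

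Members were matched to RefSeq by accession (145), symbol (9) or synonym (2), and 57 had no match. 1 name (PA2G4) matched a gene of another chromosome and was kept. Coordinates are those of the array files in hg19. Promoter sequences are from RefSeq on GRCh38.p14, and no coordinates were converted. The members, the lists by function and the partner list were chosen with earlier results of these data known, and the lists rest on general knowledge of gene function.

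The text names the 10 lowest members separated in both genotype comparisons, the 5 highest, the 2 brightest and the lowest of each list, every member called for HGF, the 5 genes on each side of each border, the called partners and those of 5 members, and MET. Other members of the lists are named as examples. Some genes of the marker and partner lists are not reported here. Where no array of a group read a probe well above background, "at least" folds use, per array, the higher of its own signal and the lowest signal above background. The alternatives tried were normexp (offset 50), quantile normalization, scaling by the array median, no filter on dim probes, a filter that asks for all 16 arrays, outlier spots kept, the median over the probes of a gene, slide as a block, slide and row as a block, trended and robust empirical Bayes, and each array left out in turn. Nothing states which arrays share a culture week, so p-values measure the spread between these samples, and 4 arrays a group limit the precision.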

Additional observations from a re-analysis of the deposited data

Results flagged for a closer look

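Among 155 groups of 4 arrays examined for a single array far from the other 3, 9 passed the limit of Dixon's test, and chance alone passes about 1 in 20. The median over the members was low on 16HBE-ex14 replicate 2 (-0.53, next -0.38, gap over range 0.9419). The same array was lowest for KPNA5 (-2.08, next -1.67, gap over range 0.9122) and for A_32_P230825 (6.05, next 6.38, 0.8345). DSE was high on 16HBE-ex14 replicate 3 (5.59, next 5.46, 0.8892), and THC2691182 was low on 16HBE-ex14 replicate 4 (-4.97, next -3.78, 0.8294). In 16HBE-WT, A_32_P230825 was low on replicate 3 (5.17, next 5.64, 0.8636) and ENPP1 on replicate 2 (1.64, next 2.06, 0.847). CALHM6 was high on 16HBE-WT+HGF replicate 3 (2.60, next 2.19, 0.8466). LIN28B was low on 16HBE-ex14+HGF replicate 4 (-5.75, next -4.85, 0.8419), a group in which no array read it well above background.

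ARHGAP18 stood below the wild type on every array of the clone without HGF and above it on every array with HGF. Its genotype difference with HGF minus that without was 0.7113 (SE 0.175, limma adjusted p = 0.48, unadjusted p = 0.00113), so the test of the difference was not passed after adjustment over all probes.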

How the results depend on the processing

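Over 26 alternatives, 4108 of 4211 values of single genes were taken as unchanged. Of 237 summary values, which also include the restriction to protein-coding members, 221 were taken as unchanged. A tested value passed if it kept its direction and its side of the threshold, or if it was called in neither setting, whatever its direction. An untested genotype difference or median passed if it moved by at most 1 SD. Dropping 1 of 4 arrays cannot move a group mean that far, and a block or trended fit hardly changes a difference. Untested genotype differences of single genes were thus all but bound to pass in most settings, and the share that passed is no measure of robustness. Counts were compared by their size only. A fall from 9 to 6 members called for HGF without 16HBE-ex14 replicate 4 therefore passed as unchanged. The 9 members called for HGF in 16HBE-ex14 became 5 with normexp background correction and 5 with scaling by the array median, and 4 to 10 when arrays were left out in turn. The tests in 16HBE-WT and of the difference between responses called 0 throughout. The median genotype difference without HGF was -0.25 with scaling by the array median, where all gene names shifted to 0.12. The members relative to all gene names stayed at -0.37 there. With no filter on dim probes (385 names) the median difference was -0.27, and all gene names shifted to -0.12. The members relative to all gene names were then at only -0.15 without HGF and -0.27 with it. With arrays left out the median difference without HGF ran from -0.41 to -0.35. With protein-coding members only, chosen after seeing the data, it was -0.52 without and -0.49 with HGF. With HGF it ran from -0.39 to -0.33 with arrays left out. With normexp the members relative to all gene names were at -0.16 and -0.16. The 82 members lower on every array without HGF became 48 with scaling by the array median, 124 with no filter and 81 to 95 with arrays left out, and the 76 with HGF became 122 with no filter and 75 to 87. The 3 partners called higher without HGF became 8 with scaling by the array median and 3 to 8 with arrays left out (8 when 16HBE-ex14 replicate 1 was left out, 5 for its replicate 2 or 16HBE-WT replicate 3, 6 for 16HBE-WT replicate 4), and the 6 with HGF became 5 to 8. CEP85L turned to -1.08 with outlier spots kept and RNGTT to 0.054 with the median over its probes, both without HGF. Slide, or slide and row, as a block left the same 9 calls. No paired analysis was possible because the labels tie no array to a culture, and the block of slide and row pairs arrays only by their position. The cause of these changes was not tested. In all 144 of 213 members were above background on every array, and the differences of the others are limited by background.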
